A study of Homo sapiens with 17 samples.

Results

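The genes described are 46 genes of homologous recombination, the Fanconi anemia pathway, mismatch repair and the DNA damage checkpoint, taken by name from the 19141 genes of the count table, of which 18868 carry a symbol. Members were taken by their place in these pathways, and no measured value entered the rule, although earlier results of these data were known when they were chosen. RNA sequencing had been done on YB5 cells, a line derived from the human colon cancer line SW48 that carries 1 inserted, silenced GFP reporter behind a cytomegalovirus promoter, so every culture is the same engineered line. Cells had received 250 nM toyocamycin, an adenosine analog, or its vehicle DMSO, for 2, 10, 24 or 48 h or until a final time. The labels put that final time at 72 h. The experiment was elsewhere described as lasting 96 h, so the name last time point is used here. The 17 libraries used comprised 2 against 2 at 2 h, 2 toyocamycin against 1 DMSO at 10 h (a column of the count table named as a further 10 h DMSO library matched no sample and was not analysed here), 1 against 1 at 24 h and at 48 h, and 3 against 3 at the last time point. The labels name 2 batches. Batch 2 held replicate 2 of both arms at 2 h and at 10 h, and batch 1 held all other libraries, so the 10 h vehicle library came from batch 2 and the treated pair from both batches. The study calls its replicates biological repeats, but the sources used here do not say whether they came from separate cultures, so p-values measure the spread between these libraries, which may be technical.

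Libraries held 8735465 counts (toyocamycin 10 h, replicate 2) to 22121364 counts. Levels are given as CPM, a gene's counts in a library scaled by TMM to a total of 1000000. All 7 colon epithelial markers examined were above 1 CPM in every vehicle library of the last time point, and their summed counts there, 6722 to 7530.4 per 1000000 counts without TMM, were above the 384 to 423 of the treated libraries. Of 13 markers of fibroblasts, leukocytes and endothelium, only PECAM1 was above 1 CPM throughout either arm of that time point, in the treated libraries. On the same scale without TMM, the sums of these foreign markers peaked in the shallow 10 h library, at 19.5 for fibroblasts, 5.38 for leukocytes and 12.7 for endothelium. Mitochondrially encoded genes took 0.917% to 6.55% of counts. The 100 most abundant genes took 18.6% to 22.2% of counts in vehicle libraries and 34.5% to 37.4% in treated libraries from 24 h on. The part of these shifts in the results below was not tested.

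Homologous recombination repairs a double-strand break by copying the sister chromatid. The MRE11-RAD50-NBN complex and RBBP8 (CtIP) start resection of the broken end, BRCA1-BARD1, PALB2 and BRCA2 load the recombinase onto the exposed strand, and helicases and resolvases clear the joint molecules. The Fanconi anemia core complex ubiquitinates FANCD2-FANCI at interstrand crosslinks, and the kinases ATM and ATR, with CHEK1 and CHEK2 below them, hold the cell cycle while repair proceeds. Several of these genes are long, and transcripts of long DNA repair genes are known to be sensitive to loss of the kinases that drive RNA polymerase II elongation, such as CDK12. How the members' changes related to gene span is therefore described after the changes themselves.

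In vehicle cells all members were transcribed. Per kilobase of MANE Select exon, the median over the 8 DMSO libraries ran from 0.791 CPM per kb for ATM to 17.3 for RBBP8. FANCA (16.5), MSH6 (15.4), FANCG (14.7), CHEK2 (13.7), TOPBP1 (13.1), FANCI (12.7) and CHEK1 (12.1) followed RBBP8 in this per-length order, and their ranges over the 8 libraries overlapped. At the low end, ATM (0.575 to 1.90 CPM per kb), BRCA2 (0.701 to 1.81), GEN1 (0.826 to 2.24) and RAD54B (0.903 to 2.17) also overlapped. The order differed after long treatment. At the last time point RAD51C stood highest per length, at 51.0 to 60.2 CPM per kb, and FANCF followed at 29.5 to 35.2 and MDC1 at 25.1 to 29.4, where the highest vehicle values were 6.03, 4.44 and 5.12 CPM per kb.

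**Figure D1:**
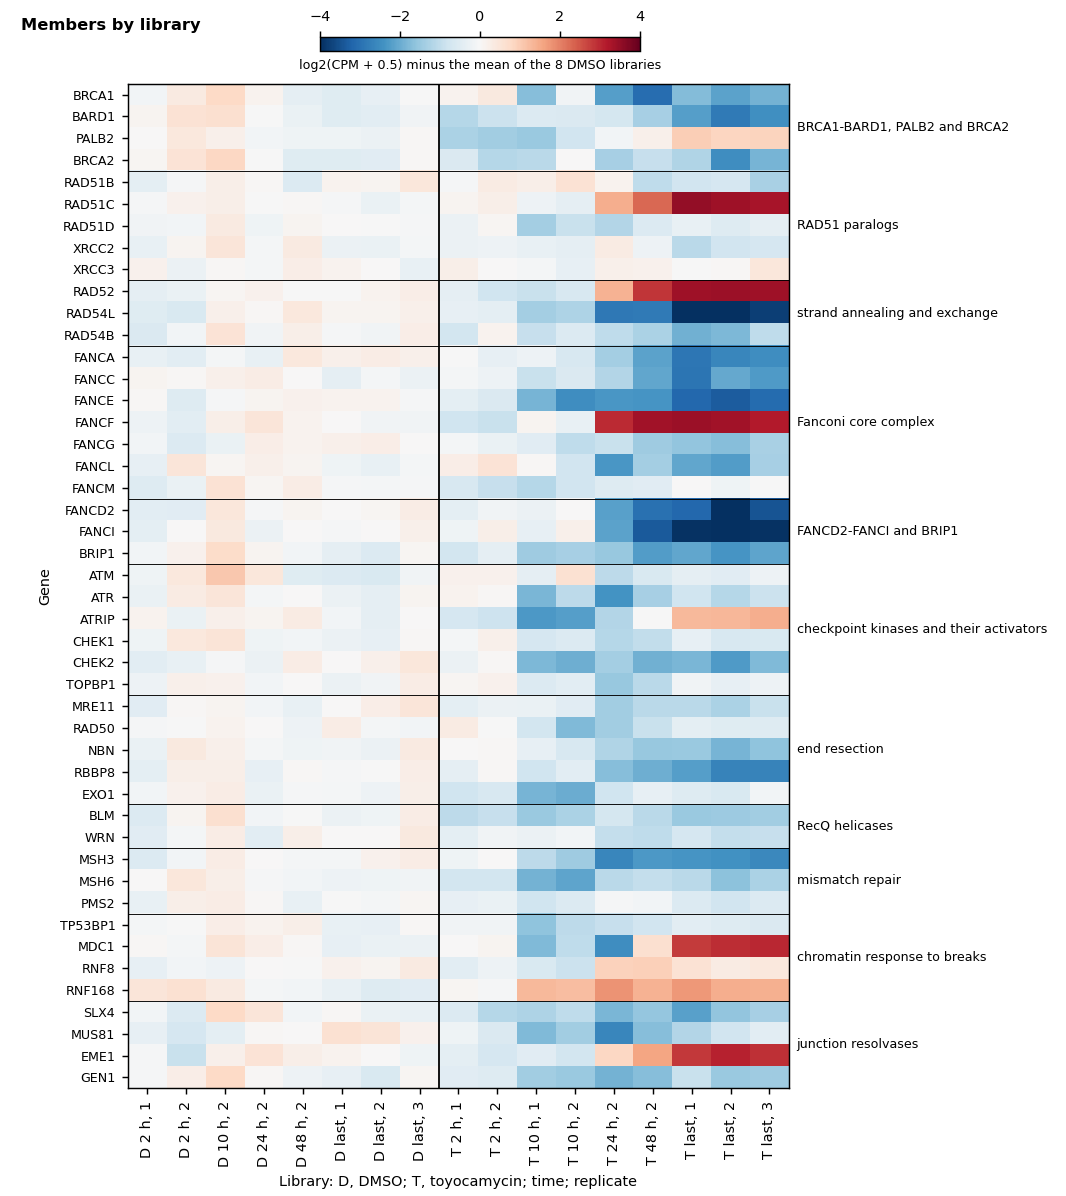
Heat map of the 46 members (rows, grouped by role) in the 17 libraries (columns, 8 DMSO then 9 toyocamycin), coloured by log2(CPM + 0.5) minus the mean of the 8 DMSO libraries and cut at 4 in either direction. Blue spreads from a few rows at 2 h to most rows from 10 h on, while RAD51C, RAD52, FANCF, MDC1 and EME1 are red at the last time point.

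After 2 h of toyocamycin, 9 members had fallen and 0 had risen at an adjusted p under 0.1 in edgeR's quasi-likelihood test. They comprised 3 of the 4 genes of the BRCA1-BARD1, PALB2 and BRCA2 group and 1 each in 6 other roles. These 9 are 19.6% of the members, where 8.42% of the 14491 genes tested were lower and 0.518% higher. At an unadjusted p under 0.05 the counts were 11 lower and 0 higher, and the DESeq2 Wald test also gave 9 and 0. The median log2 fold change of the members was -0.09, and 0.02 over all genes tested, so most members had moved little.

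PALB2, which bridges BRCA1 and BRCA2, fell most at 2 h. It stood at 16.5 and 21.7 CPM in the DMSO libraries and at 6.5 and 5.9 CPM in the toyocamycin libraries, a log2 fold change of -1.62 (SE 0.197, adjusted p = 1.06e-04). BARD1, the RING partner of BRCA1, was at 26.1 and 36.9 CPM with DMSO and at 10.7 and 13.2 CPM with the drug, a log2 fold change of -1.40 (SE 0.229, adjusted p = 0.00116). Both treated libraries lay below both vehicle libraries for each of these genes. BRCA2, which delivers the recombinase, was at 12.6 and 17.8 CPM in vehicle and at 7.83 and 5.15 CPM in treated cells, a log2 fold change of -1.22 (SE 0.327, adjusted p = 0.0332). BRCA1 itself did not pass the test, with 14.8 and 20.6 CPM against 17.4 and 21.1 CPM and a log2 fold change of 0.13 (SE 0.221, adjusted p = 0.848). Thus the partners of BRCA1 were lower at 2 h in libraries where the BRCA1 groups overlapped.

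The other members that passed at 2 h came from 6 further roles. MSH6, which recognises base mismatches as a heterodimer, was at 69.5 and 93.7 CPM with DMSO and at 41.6 and 40.9 CPM with toyocamycin (log2 fold change -0.98, SE 0.183, adjusted p = 0.00311). BLM, the Bloom syndrome helicase, was at 11.2 and 18.1 CPM in vehicle against 7.91 and 8.67 CPM (log2 fold change -0.82, SE 0.245, adjusted p = 0.0584). EXO1, an exonuclease of long-range resection and of mismatch repair, was at 36.8 and 44.8 CPM against 22.8 and 25.5 CPM (log2 fold change -0.76, SE 0.203, adjusted p = 0.0332). For these 3 genes too, every treated library lay below every vehicle library. ATRIP, which carries ATR to single-stranded DNA, was at 12.2 and 9.1 CPM against 6.84 and 5.96 CPM (log2 fold change -0.73, SE 0.210, adjusted p = 0.0472). FANCF, an adaptor of the Fanconi core complex, was at 9 and 7.61 CPM against 5.76 and 5.31 CPM (log2 fold change -0.59, SE 0.177, adjusted p = 0.0622). RNF168, a ubiquitin ligase acting on histones beside breaks, was at 33.1 and 35.4 CPM against 24.6 and 22.5 CPM (log2 fold change -0.54, SE 0.162, adjusted p = 0.0608). None of the 3 had overlapping groups. Such separation adds little to the calls, which came from the same libraries, and its share over all genes was not counted. Among members not called, RAD52, FANCC, FANCM, BRIP1, TP53BP1 and GEN1 also had every treated library below every vehicle library. RAD51B, RAD54L, FANCD2, CHEK2 and RAD50, not called either, had every treated library above.

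With 2 libraries an arm, the 2 h calls depended on single libraries. Between 4 and 7 members passed when 1 library was left out: 7 without DMSO replicate 1, 5 without DMSO replicate 2 and 4 without either toyocamycin library. Leaving out DMSO replicate 2 moved the median to 0.01. Batch and replicate number coincide at 2 h. The pairing as a block, which allows each batch its own level, was fitted on the 2 h libraries alone, with 11848 genes tested. There 12 members were lower and 0 higher, BRIP1 (log2 fold change -0.61, adjusted p = 1.64e-04), GEN1 (-0.64, 0.00164) and SLX4 (-0.53, 0.00884) joining the 9. That fit also differs in its libraries and genes, so these additions cannot be credited to the block. With batch as a term in the 14 libraries other than those of 10 h, 10 members were lower and 0 higher. When libraries were scaled on the mitochondrially encoded genes, whose share was 1.42% and 3.47% in the DMSO pair, 0 members passed, although PALB2 stayed at -1.66 and BARD1 at -1.46.

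By 10 h most members were lower. In a fit of all 17 libraries, 35 members (76.1%) had fallen and 1 (2.17%) had risen, where 24.4% of the 16521 genes tested were lower and 20.4% higher. The median log2 fold change was -1.17, against 0.42 over all genes, and 44 of the 46 estimates were negative. Every gene of 5 roles was lower, namely the BRCA1-BARD1, PALB2 and BRCA2 group, strand annealing and exchange, checkpoint kinases and their activators, mismatch repair, and the junction resolvases. The 10 genes that did not pass were RAD51B, XRCC3, FANCA, FANCF, FANCG, FANCL, FANCD2, FANCI, MRE11 and WRN, so that 3 of the 7 core complex genes and 1 of the 3 genes in the FANCD2-FANCI and BRIP1 group were lower. With 1 vehicle library, which is assumed to vary like the other groups, the count was 36 lower within batch 2 and 32 lower without that batch's treated library.

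That vehicle library stood high for many members. It was the highest of the 8 DMSO libraries for 21 of the 46 members (45.7%) and the lowest for 0, where it was the highest for 17.7% of the 16521 genes tested, and the median log2 difference of the members from the other 7 was 0.32. ATM, for example, was at 24.6 CPM there and at 7.43 to 15.9 CPM in the other vehicle libraries. Its part in the 10 h folds was not tested. Both treated libraries lay below all 8 DMSO libraries for 29 of the 35 members called lower, and the exceptions were ATM, BRCA1, BRCA2, EME1, RAD51C and RAD54B. The 35 had been called with these same treated libraries, and the share over all genes was not counted. The 29 are thus a description only.

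ATRIP fell most at 10 h, from 12.7 CPM in the DMSO library to 1.86 and 1.99 CPM, a log2 fold change of -2.73 (SE 0.282, adjusted p = 4.17e-06). The resolvase GEN1 stood at 22.3 CPM with DMSO and at 4.5 and 4.19 CPM with toyocamycin (log2 fold change -2.35). EXO1 and MSH6, already lower at 2 h, each reached a log2 fold change of -2.27. ATR, the kinase that answers stalled forks, was at 50.4 CPM against 9.85 and 17.2 CPM (log2 fold change -1.91, SE 0.310, adjusted p = 2.02e-04). CHEK1, its effector kinase, was at 78.5 CPM against 34.4 and 37.2 CPM (log2 fold change -1.13, SE 0.258, adjusted p = 0.00291). ATM, which answers double-strand breaks, was at 24.6 CPM against 8.78 and 17.9 CPM (log2 fold change -0.90, SE 0.343, adjusted p = 0.0509). For all of these genes the vehicle library was the highest of the 3. BRCA1 (27.6 CPM against 4.57 and 14.4 CPM) and BRCA2 (21.6 against 5.5 and 12.3 CPM) had treated libraries that stood far apart, replicate 1 of batch 1 being the lower of the pair in each case. Both passed, at log2 fold changes of -1.58 (adjusted p = 0.00749) and -1.31 (adjusted p = 0.0321), but without toyocamycin replicate 1 the fold of BRCA2 was -0.82 and that of ATM -0.46, and neither passed.

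RNF168 alone rose at 10 h under TMM scaling. It was at 29.9 CPM with DMSO and at 58.5 and 55.4 CPM with toyocamycin, a log2 fold change of 0.93 (SE 0.222, adjusted p = 0.00402), which was 0.47 (adjusted p = 0.119) with library size alone and turned to -0.21 (adjusted p = 0.841) with mitochondrial scaling. The scalings moved the median of all genes at 10 h from 0.42 to between -0.70 and 0.62. A scaling moves members and all genes together, and the members' median minus that of all genes stayed between -1.62 and -1.59 with them. With at least 10 counts required in every library, which 44 members passed, it was -0.84 (-0.92 for those members and -0.08 for all genes), and with no filter on low counts -1.84.

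**Figure D2:**
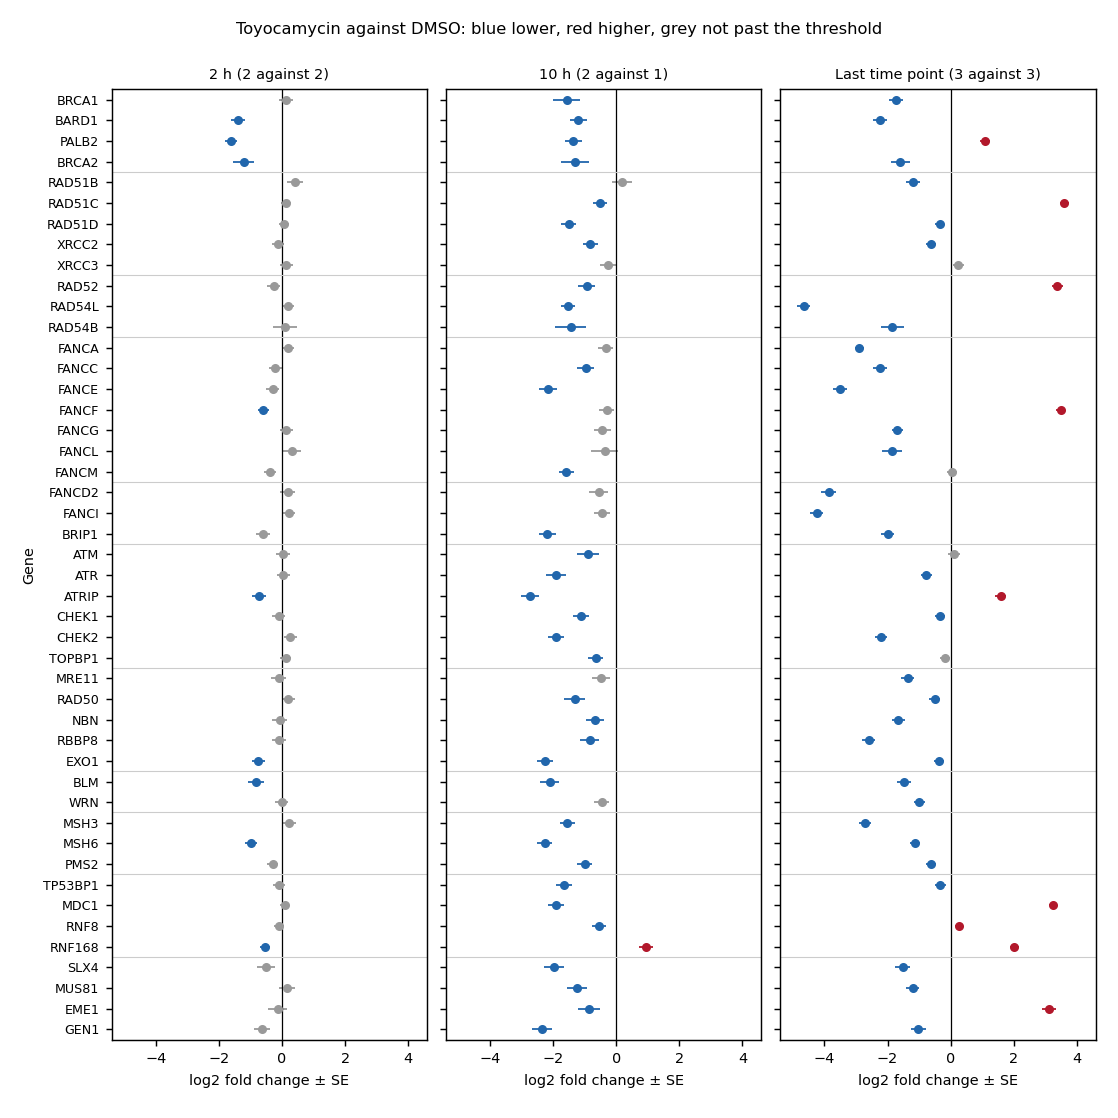
Log2 fold change (toyocamycin over DMSO, horizontal axis, points) with its standard error (bars) for the 46 members at 2 h, 10 h and the last time point, in the order of the heat map, with grey lines between roles. At 2 h 9 points are blue, at 10 h 35 are blue and 1 red, and at the last time point 33 are blue and 9 red.

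At 24 and 48 h there was 1 library an arm, so the fitted folds are values with no test. At 24 h 29 members (63%) were more than 2-fold lower and 4 (8.7%) more than 2-fold higher, where 27.8% of all genes were past 2-fold lower and 29.7% higher. At 48 h the counts were 24 (52.2%) and 6 (13%), where the whole table gave 29.9% and 38.1%. With library size alone the split was 37 and 1 at 24 h and 33 and 3 at 48 h, and with mitochondrial scaling 42 and 0, then 40 and 2. The members' median was -1.14 at 24 h and -1.04 at 48 h, against 0.00 and 0.16 over all genes. FANCF had by then left the others, at 85.4 CPM against 14.6 CPM at 24 h. RAD51C was at 36 CPM against 12.7 CPM at 24 h and at 64.8 against 13.2 CPM at 48 h. MDC1 crossed between these times, from 4.06 CPM against 30 CPM at 24 h to 38.7 CPM against 25.9 CPM at 48 h. RAD54L stood at 3.03 CPM against 26.1 CPM at 24 h and at 3.17 CPM against 34.3 CPM at 48 h.

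At the last time point 33 members (71.7%) were lower and 9 (19.6%) higher, where 41.9% of the 14491 genes tested were lower and 47% higher. The median of the members was -1.07, against 0.18 over all genes. Since both directions held over 4 in 10 of all genes, having moved was common, and what the count shows for the members is its direction. XRCC3, FANCM, ATM and TOPBP1 passed in neither direction. In these bulk libraries a lower CPM cannot be told apart between less RNA in each cell and a changed mix of cells. The counts were 28 lower and 12 higher with DESeq2 size factors, 38 and 8 with library size alone, and 38 and 6 with mitochondrial scaling, and the members' median minus that of all genes, which a scaling hardly moves, was between -1.25 and -1.21. That difference was -0.60 over the 44 members with at least 10 counts in every library, -0.99 with the replicate block, -1.57 with all 17 libraries in 1 fit and -1.84 with no filter on low counts.

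The falls were largest for RAD54L, a motor protein that works with the recombinase on chromatin. It was at 27.1, 27.5 and 29.4 CPM in the DMSO libraries and at 0.786, 1.02 and 1.39 CPM in the toyocamycin libraries, a log2 fold change of -4.66 (SE 0.207, adjusted p = 1.30e-11). FANCI was at 57.3, 59.8 and 68.7 CPM against 3.34, 2.78 and 3.39 CPM (log2 fold change -4.25, SE 0.195, adjusted p = 1.81e-11). FANCD2, its partner in the clamp that the core complex ubiquitinates, was at 40, 42.6 and 48.8 CPM against 4.13, 1.48 and 3.22 CPM (log2 fold change -3.87, SE 0.241, adjusted p = 5.26e-10). Every treated library of these 3 genes lay below every vehicle library by a wide margin. Such separation at the last time point, here and below, comes from the libraries that gave the calls. Its share over all genes was not counted, so it is a description only. FANCD2 and FANCI had not passed at 10 h, where their folds were -0.56 and -0.45, and the change between the times was itself past the threshold (last minus 10 h, -3.34 with adjusted p = 5.47e-06 and -3.83 with adjusted p = 4.38e-07).

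FANCE, the core complex subunit that contacts FANCD2, was at 24.2, 24.5 and 21.1 CPM against 2.06, 1.76 and 2.17 CPM (log2 fold change -3.50, SE 0.214, adjusted p = 4.38e-10). FANCA, a large core subunit, was at 99.1, 105 and 98.5 CPM against 11.2, 13.7 and 15 CPM (log2 fold change -2.89, SE 0.150, adjusted p = 6.80e-11). MSH3, which recognises insertion and deletion loops, was at 23.6, 28.2 and 31.1 CPM against 4.42, 4.26 and 3.74 CPM (log2 fold change -2.71, SE 0.190, adjusted p = 2.16e-09). In none of these did the groups overlap. RBBP8, the resection factor CtIP, followed at a log2 fold change of -2.59.

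The genes that rose were RAD51C, FANCF, RAD52, MDC1, EME1, RNF168, ATRIP, PALB2 and RNF8. RAD51C, a recombinase paralog that marks and stabilises filaments, was at 12.4, 10.7 and 12.3 CPM with DMSO and at 154, 140 and 131 CPM with toyocamycin, a log2 fold change of 3.61 (SE 0.141, adjusted p = 3.95e-12). FANCF was at 10.6, 9.47 and 9.4 CPM against 116, 112 and 97 CPM (log2 fold change 3.50, SE 0.142, adjusted p = 5.78e-12). RAD52, which anneals complementary strands, was at 5.7, 6.41 and 7.04 CPM against 65, 66.4 and 64.7 CPM (log2 fold change 3.39, SE 0.160, adjusted p = 2.54e-11). Each of these 3 was higher in all treated libraries, in the same roles where RAD51B, FANCE and RAD54L fell.

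MDC1, the scaffold that reads phosphorylated H2AX, was at 19.8, 20.7 and 21.1 CPM against 175, 195 and 205 CPM (log2 fold change 3.25, SE 0.129, adjusted p = 4.47e-12). EME1, the partner of MUS81 in a junction nuclease, was at 4.91, 4.41 and 3.86 CPM against 34.3, 41.1 and 36.5 CPM (log2 fold change 3.12, SE 0.219, adjusted p = 2.13e-09). MUS81 itself was lower, at 30.2, 28.4 and 22 CPM against 8.45, 11.3 and 14.3 CPM (log2 fold change -1.20, adjusted p = 6.29e-05). The 2 subunits of this nuclease thus moved in opposite directions, with no overlap of the groups in either. RNF168 was at 18.9, 16 and 17 CPM against 78.2, 64.5 and 63.1 CPM (log2 fold change 2.02, SE 0.137, adjusted p = 1.48e-09). Its vehicle level had meanwhile fallen from 33.1 and 35.4 CPM at 2 h, a log2 difference of -0.99 between vehicle libraries. RNF8, the ligase upstream of RNF168, had overlapping groups (44, 41.6 and 49.9 CPM against 57.8, 49.1 and 52.3 CPM), and its log2 fold change of 0.27 (adjusted p = 0.0711) turned to -0.34 with library size alone and -0.79 with mitochondrial scaling.

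Where a gene shares its locus with another on the opposite strand, counts made without strand could mix the pair, and the strand setting is not given in the sources used here. MDC1 (chr6:30699807-30717447, GRCh38, minus strand) overlaps TUBB, a beta tubulin, which went the other way at the last time point, from 818 to 874 CPM with DMSO to 286 to 302 CPM with toyocamycin (log2 fold change -1.49, adjusted p = 1.18e-08). EME1 (chr17:50373220-50381483, plus strand) overlaps LRRC59, which was higher, at 426 to 436 CPM against 190 to 202 CPM (log2 fold change 1.17, adjusted p = 3.27e-07), and was more abundant than EME1 in both arms. FANCF (chr11:22622533-22625823, minus strand) lies in a locus shared with GAS2, which stayed under 1 CPM in all libraries of that time point. ATRIP (chr3:48446710-48467645, plus strand) overlaps TREX1 on its own strand, so reads from the shared stretch cannot be assigned to either. BRCA1, PMS2, CHEK2 and FANCD2 have partial copies elsewhere in the genome, and their counts are uncertain to that extent.

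**Figure D3:**
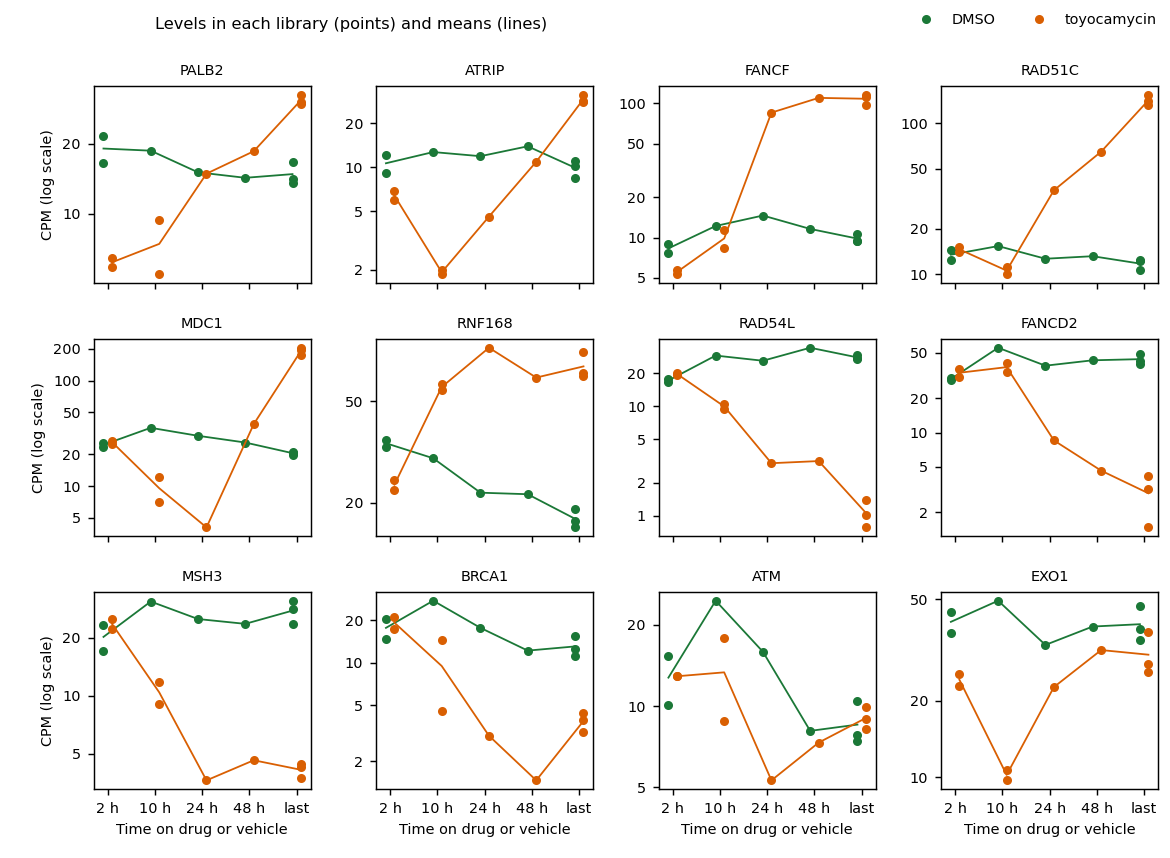
CPM (vertical log axis, scaled separately for each gene) of 12 members in every library (points) by time, with lines through the means, green for DMSO and orange for toyocamycin. PALB2 and ATRIP pass from below to above the DMSO points between 10 h and the last time point, FANCF and RAD51C rise from 24 h, MDC1 falls to 24 h and then rises, and RAD54L, FANCD2 and MSH3 stay low once they have fallen.

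Of the 35 members lower at 10 h, 25 were lower at the last time point, where 33 were lower in all, and 7 were higher (ATRIP, EME1, MDC1, PALB2, RAD51C, RAD52 and RNF8). Of the 9 lower at 2 h, 5 were lower at the last time point (BARD1, BLM, BRCA2, EXO1 and MSH6) and 4 were higher (ATRIP, FANCF, PALB2 and RNF168). Of all members, 71.7% were lower and 19.6% higher at the last time point, whatever their earlier call. The matching overlaps over all genes were not counted, so these counts are a description only. The 2 h and last comparisons share no library, and the difference between their effects was tested: 25 members had a lower effect at the last time point and 8 a higher one, against 38.1% and 38% of all genes. With DESeq2 size factors the split was 21 and 11. PALB2 rose to 32.5, 29.8 and 30.2 CPM against 14.2, 13.6 and 16.7 CPM (log2 fold change 1.09, SE 0.154, adjusted p = 7.64e-06), a difference of 2.71 from its 2 h effect (adjusted p = 1.17e-07). ATRIP rose to 28, 28.3 and 31.2 CPM against 10.2, 8.5 and 11.1 CPM (log2 fold change 1.59, SE 0.168, adjusted p = 2.84e-07), a difference of 2.32 (adjusted p = 1.44e-06). The rises of PALB2 and ATRIP were the less stable of these, at 0.03 and 0.52 with mitochondrial scaling, where neither passed. For FANCF the difference was 4.08 (adjusted p = 5.61e-10) and for RNF168 it was 2.56 (adjusted p = 3.62e-08).

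From 10 h to the last time point the effect was lower in 14 members and higher in 18, where 26.6% and 25.4% of all genes moved so, in a contrast added after the values had been seen. With mitochondrial scaling the split was 4 and 9. MDC1 came back furthest, by 5.14 on the log2 scale (adjusted p = 7.23e-09), then RAD52 by 4.30, ATRIP by 4.28 and RAD51C by 4.12. All 4 genes of the chromatin response to breaks and 4 of the 6 checkpoint genes had a higher effect at the last time point than at 10 h, and none of these 10 a lower one. In contrast, 5 of the 7 core complex genes had a lower effect at the last time point, while FANCF (3.77) and FANCM (1.60) had a higher one.

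Of the 6 checkpoint genes, all lower at 10 h, ATM and TOPBP1 did not pass at the last time point and ATRIP was higher. ATM was at 7.78, 7.43 and 10.4 CPM with DMSO and at 8.94, 8.25 and 9.91 CPM with toyocamycin, a log2 fold change of 0.11 (SE 0.202, adjusted p = 0.602). CHEK1 was at 46.6, 44 and 56.5 CPM against 43.3, 34.7 and 35.8 CPM, a log2 fold change of -0.34 (SE 0.170, adjusted p = 0.0756), which passed here but was -0.01 with DESeq2 size factors (adjusted p = 0.937). ATR remained lower, at 30.6, 27.9 and 38.9 CPM against 20.4, 16.1 and 19.4 CPM (log2 fold change -0.77, SE 0.182, adjusted p = 0.00103). CHEK2, the effector of ATM, was also lower (log2 fold change -2.22, adjusted p = 2.05e-08).

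In the BRCA1 group, BRCA1 was at 11.1, 12.6 and 15.5 CPM with DMSO against 4.42, 3.24 and 3.91 CPM at the last time point (log2 fold change -1.73, SE 0.214, adjusted p = 1.66e-06). BARD1 was at 17.4, 18 and 21.9 CPM against 4.91, 2.96 and 4 CPM (log2 fold change -2.24, SE 0.216, adjusted p = 9.72e-08). BRCA2 was at 8.47, 8.59 and 12.4 CPM against 4.91, 1.76 and 2.95 CPM (log2 fold change -1.59, SE 0.308, adjusted p = 1.81e-04). PALB2 was thus the only gene of this group that was higher, and the groups of all 4 genes were apart. All 5 resection genes, both RecQ helicases and all 3 mismatch repair genes were lower at the last time point. Among the resection genes, EXO1 had overlapping groups (38.1, 34.7 and 47 CPM against 27.9, 25.8 and 37.2 CPM) and a log2 fold change of -0.37 (adjusted p = 0.0524) that was -0.04 with DESeq2 size factors, where it did not pass. MSH6 was at 59.8, 61.2 and 62.1 CPM against 32.2, 22 and 28.2 CPM (log2 fold change -1.12), and BLM at 14.3, 14.9 and 20.7 CPM against 5.7, 5.84 and 6.08 CPM (log2 fold change -1.47).

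The other members lowered at the last time point spread over most roles. In the core complex FANCC (log2 fold change -2.24), FANCL (-1.85) and FANCG (-1.69) were lower, and beside FANCD2-FANCI the helicase BRIP1 (-2.0) was. RAD51B (-1.19), XRCC2 (-0.63) and RAD51D (-0.35) were the lower recombinase paralogs, and RAD54B, a relative of RAD54L, was at -1.85. All subunits of the end-binding complex were lower, NBN at -1.66, MRE11 at -1.36 and RAD50 at -0.50. The helicase WRN was at -0.99, the mismatch repair nuclease PMS2 at -0.62, the resolvase scaffold SLX4 at -1.52 and the resolvase GEN1 at -1.02. TP53BP1, which shields broken ends from resection, was at -0.32 (adjusted p = 0.0798) and turned to 0.01 with DESeq2 size factors, where RAD51D (-0.03) and RAD50 (-0.18) did not pass either.

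Levels also differed between vehicle cultures. Between the DMSO libraries of 2 h and of the last time point, 3 members were lower (BARD1, ATM and RNF168) and 8 higher (RAD52, RAD54L, FANCA, FANCG, FANCD2, CHEK2, RNF8 and MUS81), where 11.4% and 10.2% of all genes were. The largest of these log2 differences were -0.99 for RNF168 and 0.97 for MUS81. The last vehicle libraries all came from batch 1 and the 2 h pair from both batches, and with batch as a term in the 14 libraries the split was 2 lower and 12 higher. It turned to 8 lower and 3 higher with library size alone and to 0 and 1 with mitochondrial scaling.

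Other genes of the same pathways, from lists of fixed membership, moved in both directions. Their counts at the last time point stand beside 41.9% of all genes lower and 47% higher, and with 5 to 25 genes a list no difference from those shares is drawn. At the last time point 5 of the 9 end-joining genes tested were lower and 3 higher, with PRKDC, the catalytic subunit of DNA-PK, at -4.56 and the ligase LIG4 at 2.45 on the log2 scale. Of the 9-1-1 clamp and fork mediators 6 of 9 were lower and 1 higher (CLSPN, the claspin that activates CHEK1, at -4.39, and HUS1 at 1.99). Among partners of 53BP1 and of the BRCA1-A complex 7 of 11 were lower and 4 higher (MAD2L2 at -4.86 and SHLD3, both of the shieldin complex, at 3.66). Other Fanconi genes counted 7 of 12 lower and 3 higher (FAAP100 at -3.54 and the nuclease ERCC4 at 1.58). These lists, like the members, held genes well past 2-fold in each direction.

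The remaining lists had no rise. Resection, RPA and dissolution factors counted 7 of 10 lower (RPA1, the large subunit that coats single strands, at -4.04), checkpoint effectors 4 of 5 (the phosphatase CDC25B at -7.00), and replication factors, taken for comparison, 24 of 25 (CDC45 at -5.00). At 2 h the same lists in the order above had 0, 1, 1, 1, 1, 2 and 2 genes lower and 0 higher, where 8.42% of all genes were lower.

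The span of a gene, from its first to its last annotated base in GENCODE 44, ran among the members from 3.3 kb for FANCF to 910.4 kb for RAD51B. Spearman's rank correlation between span and log2 fold change across the 46 members was 0.12, -0.03, -0.15, -0.32 and -0.38 for the 5 times in order. Over all genes tested it was -0.09, -0.06, -0.14, -0.13 and -0.14. These are descriptions across genes measured in the same libraries, and genes are not independent replicates. With the MANE Select span, which is shorter for some members (23.8 kb in place of 114.5 kb for MSH6), the members gave 0.18, 0.04, -0.15, -0.31 and -0.37. Among the 28 members with an average log2 CPM of at least 4 (29 at 10 h) they were 0.01, -0.25, -0.34, -0.50 and -0.50, and among all genes past the same level -0.18, -0.26, -0.19, -0.14 and -0.15.

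At 2 h the longer members as a whole were not the lower ones. The 12 members over 100 kb had a median log2 fold change of 0.01 at 2 h and the 34 shorter ones -0.10. ATM (146.1 kb), BRIP1 (184.4 kb), MSH3 (222.2 kb) and RAD51B had 2 h folds of 0.03, -0.60, 0.23 and 0.40, whereas MSH6 (114.5 kb) was called lower at -0.98 and PALB2, with the largest fall, spans 38.2 kb. At 10 h the medians were -1.50 and -1.06. At the last time point they were -1.46 and -0.62, where all genes split at the same span gave -0.33 and 0.29. Each of the 9 members that were higher spans less than 100 kb, with RAD52 the longest at 78.3 kb, while the largest fall belonged to RAD54L, which spans 32.0 kb.

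**Figure D4:**
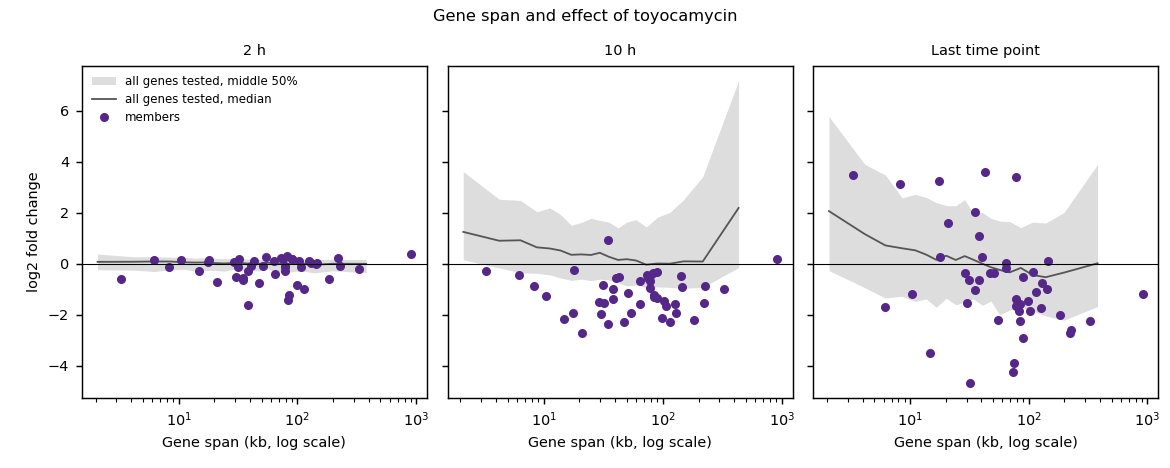
Log2 fold change (vertical axis) against gene span in kb (horizontal log axis) at 2 h, 10 h and the last time point, for the 46 members (purple points) over the median (line) and the middle 50% of values (band) of all genes tested in 20 bins of span. At 2 h most members lie near the line and the lowest, PALB2, is at -1.62; at 10 h most lie below it, and at the last time point the points above 2 all lie under 100 kb.

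Promoter sequences are shown for the members with the largest falls that RefSeq (GRCh38.p14) lists and the largest rises, because the former and the latter moved apart within the same pathways. RefSeq promoters were matched for 42 members, and RAD54B, FANCI, NBN and WRN were not matched. Each line gives 200 bases, 190 before the start site and 10 from it, on the gene's strand. Capitals mark E2F sites (TTTGGCGC, TTTCCCGC, TTTGGCGG or TTTCCCGG), the CHR element (TTTGAA), the CCAAT box (CCAAT) and the GC box (GGGCGG), each searched on both strands. A GC box can overlap a neighbouring GC box or an E2F site. The windows are at chr1:46247498-46247697 (plus strand) for RAD54L, chr3:10026247-10026446 (plus) for FANCD2, chr6:35452148-35452347 (plus) for FANCE, chr17:58692383-58692582 (plus) for RAD51C and chr11:22625814-22626013 (minus) for FANCF.
RAD54L: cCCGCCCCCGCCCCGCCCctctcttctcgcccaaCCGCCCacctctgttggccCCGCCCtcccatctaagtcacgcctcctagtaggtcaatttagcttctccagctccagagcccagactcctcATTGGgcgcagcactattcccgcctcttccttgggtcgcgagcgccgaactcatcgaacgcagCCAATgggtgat
FANCD2: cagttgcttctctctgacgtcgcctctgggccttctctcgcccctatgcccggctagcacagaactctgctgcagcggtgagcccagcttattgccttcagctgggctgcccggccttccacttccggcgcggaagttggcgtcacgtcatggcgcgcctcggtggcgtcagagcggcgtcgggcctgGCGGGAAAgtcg
FANCE: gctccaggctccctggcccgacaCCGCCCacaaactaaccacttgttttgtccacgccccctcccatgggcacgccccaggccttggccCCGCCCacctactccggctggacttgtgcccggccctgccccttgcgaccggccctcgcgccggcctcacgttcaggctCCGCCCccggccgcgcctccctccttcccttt
RAD51C: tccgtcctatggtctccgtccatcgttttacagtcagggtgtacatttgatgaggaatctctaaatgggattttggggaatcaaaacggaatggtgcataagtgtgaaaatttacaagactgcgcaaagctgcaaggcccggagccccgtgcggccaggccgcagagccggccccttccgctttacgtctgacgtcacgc
FANCF: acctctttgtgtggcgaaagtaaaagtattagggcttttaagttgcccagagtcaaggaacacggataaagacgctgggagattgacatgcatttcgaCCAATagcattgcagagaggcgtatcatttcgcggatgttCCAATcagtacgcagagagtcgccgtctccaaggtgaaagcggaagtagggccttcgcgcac

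The RAD54L window holds a run of GC boxes and CCAAT boxes at -65 and -2 from the start site. The FANCD2 window holds an E2F site at its start site. In the FANCE window the GC boxes stand apart, at -167, -101 and -22 from the start site. The RAD51C window holds none of the letters searched, and FANCF holds a pair of CCAAT boxes and no GC box. Over the full promoter windows of RefSeq, from 250 bases before to 50 after the start, a GC box stood in 27 of 29 members lower at the last time point (93.1%), in 4 of 9 higher ones (44.4%) and in 44.6% of all 27305 promoters. E2F letters stood in 7 of 29 lower members (24.1%), 1 of 9 higher members (11.1%) and 4.3% of all promoters. A CCAAT box stood in 11 of 29 (37.9%), 5 of 9 (55.6%) and 35.7%, and CHR letters in 2 of 29 (6.9%), 1 of 9 (11.1%) and 15.4%. Over all 42 matched members, whatever their direction, a GC box stood in 33 (78.6%) and E2F letters in 8 (19.0%). A CCAAT box stood in 19 of them (45.2%) and CHR letters in 4 (9.5%). For the GC box and E2F letters the list as a whole thus already stood above all promoters. Whether the letters relate to the direction of change was not tested. The match is of letters only, and factor binding was not measured in these libraries.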

How the data were processed

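RNA of YB5 cells had been sequenced as poly(A) paired-end libraries, and the deposited values are raw counts per gene that the authors made with STAR 2.7.5a and its GeneCounts mode on GRCh38. The strand setting was not given in the sources used here. Symbols, spans and coordinates were taken from GENCODE 44, which is not the annotation release the study names for its counts. A second deposited table, of the authors' own fold changes and p-values, was not used. One column of the count table (1), named as a 10 h DMSO library, matched no sample and was not used.

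Counts were fitted in edgeR 4.0.16 (R 4.3.3) with filterByExpr, TMM scaling, treatment-by-time groups and the quasi-likelihood test in the form of edgeR 3, with Benjamini-Hochberg adjustment over all genes tested and a threshold of 0.1. A fit of 14 libraries gave 2 h, 24 h, 48 h and the last time point, and a fit of all 17 gave 10 h, where 1 vehicle library was assumed to vary like the others. At 24 and 48 h folds past 2 were counted without a test. The fit of 14 libraries was tested on simulated counts, for 2 h and the last time point only. The fit of all 17, which gave 10 h, was not tested so. Rates of recovery and of false calls on the simulated counts are not given here. Alternatives comprised other scalings, count filters, DESeq2 1.42.0, a batch term, a replicate block and left-out libraries, of which a batch term in 14 libraries, the contrast of the last time point with 10 h and the MANE Select span were chosen after seeing the data. Numbers in the labels mark the batch at 2 h, and same-numbered libraries deviated together there (r = 0.307).

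The members and lists were chosen with earlier results of these data known. Members described in every library were those called at 2 h (up to 8 by size), the 6 largest falls and 6 largest rises at the last time point, those called in opposite directions at 2 h and at the last time point, and BRCA1, BRCA2, ATM, ATR, CHEK1 and FANCD2. From the other lists, the called genes with the largest fall and rise are named. RNF8 and MUS81 were given in every library after their values were seen. Precision is limited by depth, 8735465 to 22121364 counts a library, and by the number of libraries.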

Additional observations from a re-analysis of the deposited data

Results flagged for a closer look

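The effect of toyocamycin differed between the times for many members, by a test of the difference itself (edgeR's quasi-likelihood test, adjusted p under 0.1). The effect at the last time point differed from that at 2 h in 33 members, and from that at 10 h in 32 members. Of the members 54.3% had a lower and 17.4% a higher effect than at 2 h, and 30.4% and 39.1% than at 10 h. Over all genes tested the shares were 38.1% and 38%, then 26.6% and 25.4%, so such differences were common among all genes. With libraries scaled on the mitochondrially encoded genes the count against 10 h was 4 lower and 9 higher. Among the 33 members that differed from 2 h, 4 genes had been called in opposite directions at 2 h and at the last time point. The difference of their log2 effects was 2.71 for PALB2, 4.08 for FANCF, 2.32 for ATRIP and 2.56 for RNF168. For these 4 genes, picked by calls on the same libraries, all 3 treated libraries of the last time point lay above the vehicle libraries. Both treated libraries lay below the vehicle libraries at 2 h. The 2 h direction of each held in all settings tried, but its call was lost in at least 1 of them, with mitochondrial scaling in every case.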

How the results depend on the processing

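Of the 87 member effects called at 2 h, 10 h and the last time point, 1328 values under other settings kept direction and call in 1223, lost the call in 101 and turned in 4. The turned ones were TP53BP1 at the last time point (0.01 with DESeq2 size factors), RNF8 at the last time point (-0.34 with library size alone, -0.79 with mitochondrial scaling) and RNF168 at 10 h (-0.21 with mitochondrial scaling). All calls were kept for 0 of 9 effects at 2 h, 25 of 36 at 10 h and 32 of 42 at the last time point.

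With mitochondrial scaling, 0 members were lower at 2 h, 0 higher at 10 h, 0 past 2-fold higher at 24 h, 40 past 2-fold lower and 2 higher at 48 h, 4 lower and 9 higher for the last time point minus 10 h, and 0 lower and 1 higher between vehicle libraries. With library size alone the counts were 0 higher at 10 h, 1 past 2-fold higher at 24 h, 3 at 48 h, and 8 lower and 3 higher between vehicle libraries. A minimum fold of 1.5 left 2 members lower at 2 h, and 1 lower and 0 higher between vehicle libraries. The latter higher count was 4 with all 17 libraries in 1 fit and 4 at an adjusted p under 0.05. These scalings shift all genes together. The other causes were not tested.

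The members' median was -0.97 with DESeq2 size factors, -1.63 with library size alone, -2.32 with mitochondrial scaling and -0.92 with at least 10 counts in every library at 10 h. At 24 h the first 3 settings gave -1.0, -2.16 and -3.41. At 48 h the 4 settings gave -0.80, -1.65, -2.88 and -0.70, and at the last time point -0.75, -1.67, -2.10 and -0.72. The rank correlation of span and effect in genes with an average log2 CPM of at least 4 was, for the members, 0.01, -0.25, -0.34, -0.50 and -0.50 in order of time, and for all genes -0.18, -0.26, -0.19, -0.14 and -0.15.

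Leaving out 1 library gave 4 to 7 members lower at 2 h with a median of -0.20 to 0.01, 32 to 36 lower at 10 h with a median of -1.20 to -0.97, and 29 to 33 lower and 8 to 9 higher at the last time point with a median of -1.16 to -0.96. A replicate block was fitted within the libraries of 1 time alone. At 2 h it gave 12 members lower and 0 higher. At the last time point same-numbered libraries did not deviate together (r = -0.105, 0.043 and -0.088), and the block gave 30 lower and 10 higher. No paired analysis was possible at 10 h, 24 h and 48 h because at most 1 number was shared. Leaving out a library at 24 or 48 h, or the vehicle library at 10 h, gave no value.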
